A study of Mus musculus with 2 samples.

Results

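The genes described here encode the nuclear subunits of respiratory complexes II, III, IV and V, together with their tissue-specific isoforms. They were taken by symbol: Sdha to Sdhd for complex II, names beginning with Uqcr for complex III, Cox4 to Cox8 for complex IV and Atp5 for complex V. The rule found 47 genes of 24346 symbols, 4 in complex II, 8 in complex III, 18 in complex IV and 17 in complex V. Of these, 37 are subunit genes expressed in all tissues, 7 are tissue-specific isoforms of complex IV and 3 carry a family name but are not structural subunits of the complex (Cox7a2l, Atp5s and Atp5sl).

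RNA was sequenced from cells positive for Gr-1 and CD11b, surface proteins found together on neutrophils and monocytes. All cells came from BALB/c mice given 3% dextran sulfate sodium (DSS), a polymer that injures the colon, for 6 days, so the control cells come from colitic mice too. The control library comes from cells kept for 2.5 hours without ATPγS, and the ATPγS library from cells kept as long with it. ATPγS is a form of ATP that enzymes split slowly; its labelled concentration is 100, in a unit whose prefix is lost. With 1 library per condition there is no replicate error and no test, and the labels do not say how many mice or cells each library holds.

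The respiratory chain sits in the inner mitochondrial membrane. Complex II (succinate dehydrogenase) passes electrons from succinate to ubiquinone, complex III passes them on to cytochrome c, and complex IV (cytochrome c oxidase) to oxygen, while complexes III and IV move protons out of the matrix. Complex V (ATP synthase) lets the protons back through its membrane part, Fo, and makes ATP in its catalytic part, F1. Neutrophils are known for making most of their ATP by glycolysis, with few mitochondria whose membrane potential is kept up.

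Levels are given as FPKM, a fragment count scaled by transcript length and library size, which allows comparison between genes of different length. The depth recovered from the FPKM steps was 2132000 fragments (control) and 2849000 (ATPγS). The 37 subunit genes rested on about 73 to 1485 reads each in the control (median 168) and 86 to 1658 with ATPγS (median 208), estimated from FPKM and transcript length. Of 10 neutrophil markers listed, 9 were in the data, all above 0, and Ly6g was absent as a symbol. The 9 summed to 37217 FPKM in the control and 40077 with ATPγS, mostly from S100a8 (20604 and 22409.6 FPKM) and S100a9 (13776 and 14942 FPKM). Of the 9, 5 were lower with ATPγS and 4 higher (median log2 ratio -0.10), and Itgam, the gene of CD11b, stood at 112 and 144 FPKM. Other cells were present as well. Markers of T and NK cells (8 of 8 above 0) summed to 258 FPKM in the control and 89.3 with ATPγS, and those of B cells (5 of 5) to 331 and 252. Those of monocytes and macrophages (8 of 8) summed to 670 and 838, and those of epithelium (5 of 5) to 150 and 107. Of 5 red cell markers listed, 4 were in the data and Hbb-bt was absent. The 4 summed to 733 and 634 FPKM (4 above 0 in the control, 3 with ATPγS). That sum came mostly from Hba-a1 (725 and 616 FPKM), while Alas2 went the other way (7.36 and 17.9 FPKM). Lower with ATPγS were 7 of 8 T and NK, 4 of 5 B and 4 of 5 epithelium markers. Of the monocyte and macrophage markers 1 of 8 was lower. Among all symbols with a mean of 1 FPKM or more, 49.6% were lower. The part of these other cells in the values below was not tested. In bulk samples, fewer cells of a type and less RNA per cell cannot be told apart.

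Most subunit genes were well expressed and stood slightly lower in the ATPγS library. Of the 47 members, 45 had a mean FPKM of 1 or more, and 32 of these had a log2 ratio of ATPγS to control below 0 (71.1%), computed after adding 1 to each FPKM. The median was -0.19. The share below 0 was 49.6% of all 18311 symbols at that level, and 60.7% of the 3480 symbols with a mean of 20 FPKM or more, where the median was -0.12. At that higher level 27 of 37 members (73.0%) lay below 0, also with a median of -0.19. Scaling the ATPγS library to the same summed FPKM as the control left 31 of 45 members below 0 (background 46.6%). Of the 37 subunit genes of all tissues it left 26 (background at the higher level 55.5%). This set is not the 37 members above: it holds Sdhc, with a mean of 12.3 FPKM, in place of Cox7a2l. Scaling the ATPγS library so that the median log2 ratio was 0 left 28 of 45 members (background 42.8%), with a median of -0.064. Of the 37 subunit genes it left 24 (background at the higher level 48.8%). Ratios as small as these therefore depend on the scaling.

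Differences of 2-fold or more were few. On the same scale 3 of 45 members were at least 2-fold lower with ATPγS (6.67%; background 9.91%) and 2 at least 2-fold higher (4.44%; background 13.8%). Among symbols with a mean of 20 FPKM or more the background was 5.0% lower and 2.30% higher, and the members there had 1 lower gene, Uqcrc2, and 0 higher of 37. The other 4 were listed at 0 in a library or rested on few reads (Cox6b2, Cox7a1, Cox8b and Atp5s).

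**Figure D1:**
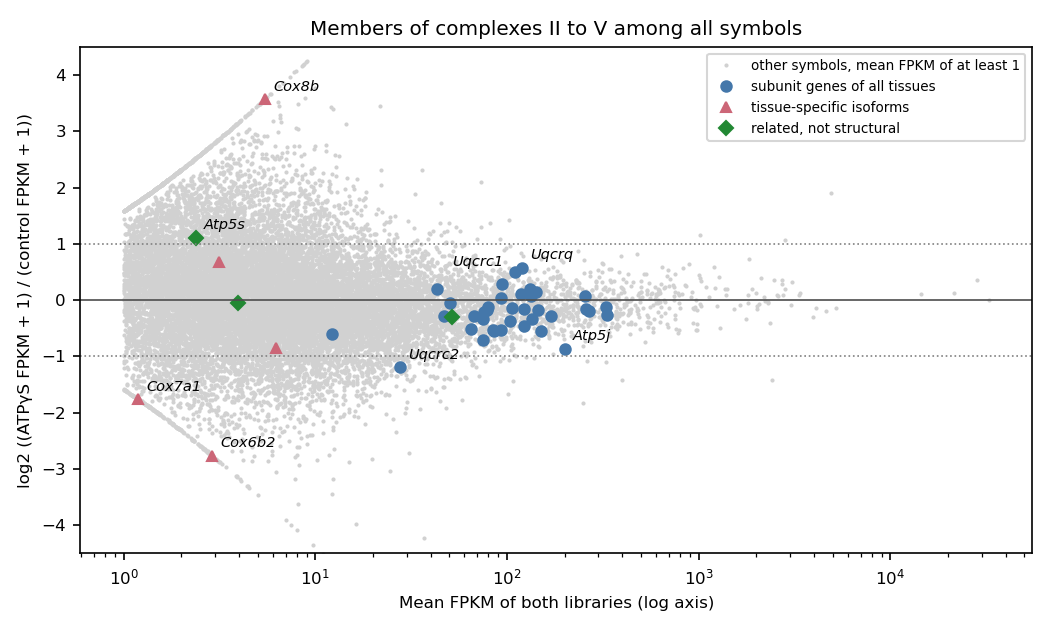
Each symbol with a mean of 1 FPKM or more, by its mean FPKM over both libraries (log axis) and its log2 ratio of ATPγS to control with 1 added to each FPKM; circles are subunit genes of all tissues, triangles tissue-specific isoforms, diamonds related genes, dotted lines 2-fold, and 48 symbols lie outside the vertical range. The subunit genes form a tight group near 0 with Uqcrc2 under the lower line, while Cox8b, Cox6b2 and Cox7a1 lie on the edges where symbols at 0 in 1 library fall.

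A counting interval of each ratio (95%, exact binomial on the estimated reads) lay wholly below 1 for 16 of the 37 members with a mean of 20 FPKM or more wholly above 1 for 2 and included 1 for 19. The background was 39.3%, 21% and 39.7% of 3364 symbols at that level. Over all 45 members the counts were 18, 3 and 24, with a background of 23%, 22.3% and 54.7% of 17565 symbols. After rescaling to a median log2 ratio of 0, intervals lay wholly below 1 for 10 of the 45 (background 17.7%) and wholly above 1 for 6 (background 27.2%). At the higher level the share below 1 is close to the background, and the share above 1 (2 of 37) is under the background of 21%. The 2 genes above 1 are both in complex III. Such intervals take each read as a separate molecule. PCR copies cannot be told from separate molecules here, so the intervals may be too narrow even for counting error. They say nothing of the spread between cultures.

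**Figure D2:**
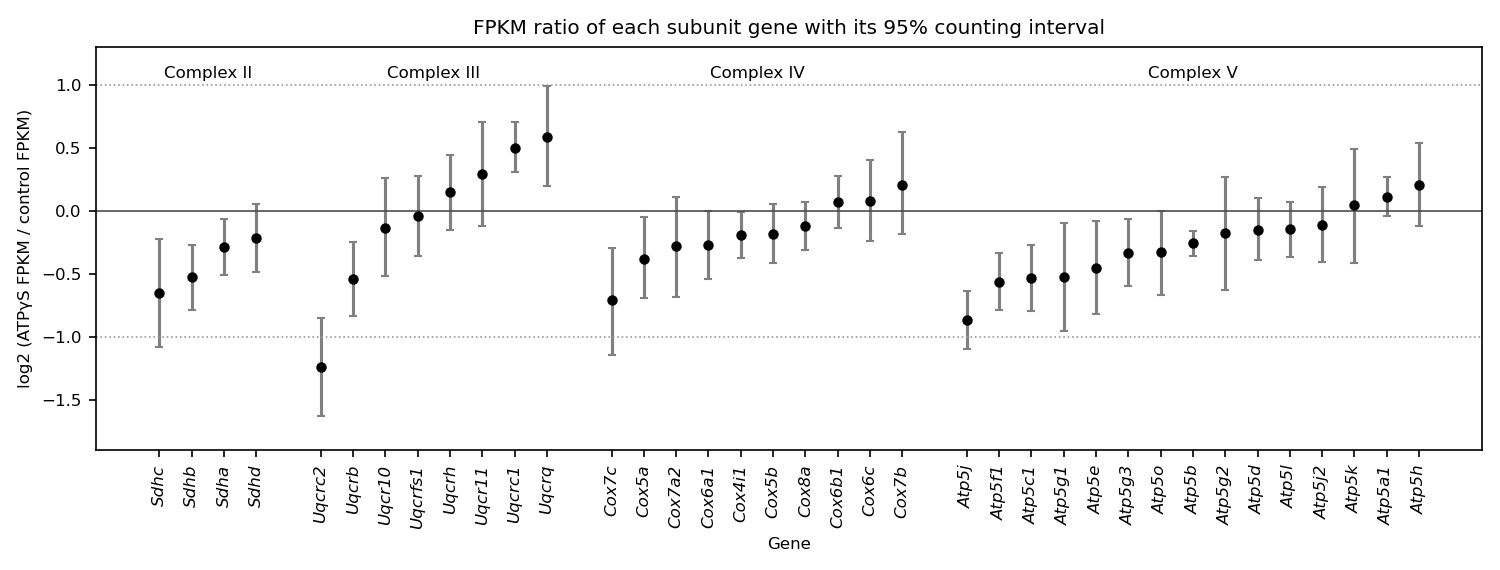
log2 of the ratio of ATPγS to control FPKM for the 37 subunit genes expressed in all tissues, ordered within each complex, with bars for the 95% counting interval and dotted lines at 2-fold. Every complex II gene lies below 0, complex III spans the widest range from Uqcrc2 to Uqcrq, and Cox7c and Atp5j are the lowest of complexes IV and V.

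Summed over its subunit genes, complex II stood at 258 FPKM in the control and 198 with ATPγS (ratio 0.768), and complex V at 2171 and 1797 (ratio 0.828). Complex IV summed to 1674 and 1510 FPKM (ratio 0.902). Complex III went the other way by a small margin, at 787 and 815 FPKM (ratio 1.04). The counting interval of the ratio of summed reads was 0.703 to 0.847 for complex II, 0.959 to 1.11 for complex III, 0.854 to 0.955 for complex IV and 0.807 to 0.873 for complex V. Multiplying the ATPγS values by 1.10, the factor that sets the median log2 ratio of symbols with a mean of 10 FPKM or more to 0, gave 217 for complex II, 892 for complex III, 1653 for complex IV and 1968 for complex V. Complexes II and V then still lay below their control sums, complex IV a little below, and complex III above.

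Per gene, the median level ran from complex II (66.3 FPKM in the control and 56.0 with ATPγS) to complex IV (143 and 137 FPKM). Complexes III (93.1 and 113 FPKM) and V (114 and 103 FPKM) lay between them and changed places, and with 1 library each their order has no spread to be judged by. The levels of the 37 genes kept much of their order between the libraries (Pearson r = 0.936 on log10 FPKM, Spearman rho = 0.882, across genes, which share both libraries and are not replicates).

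**Figure D3:**
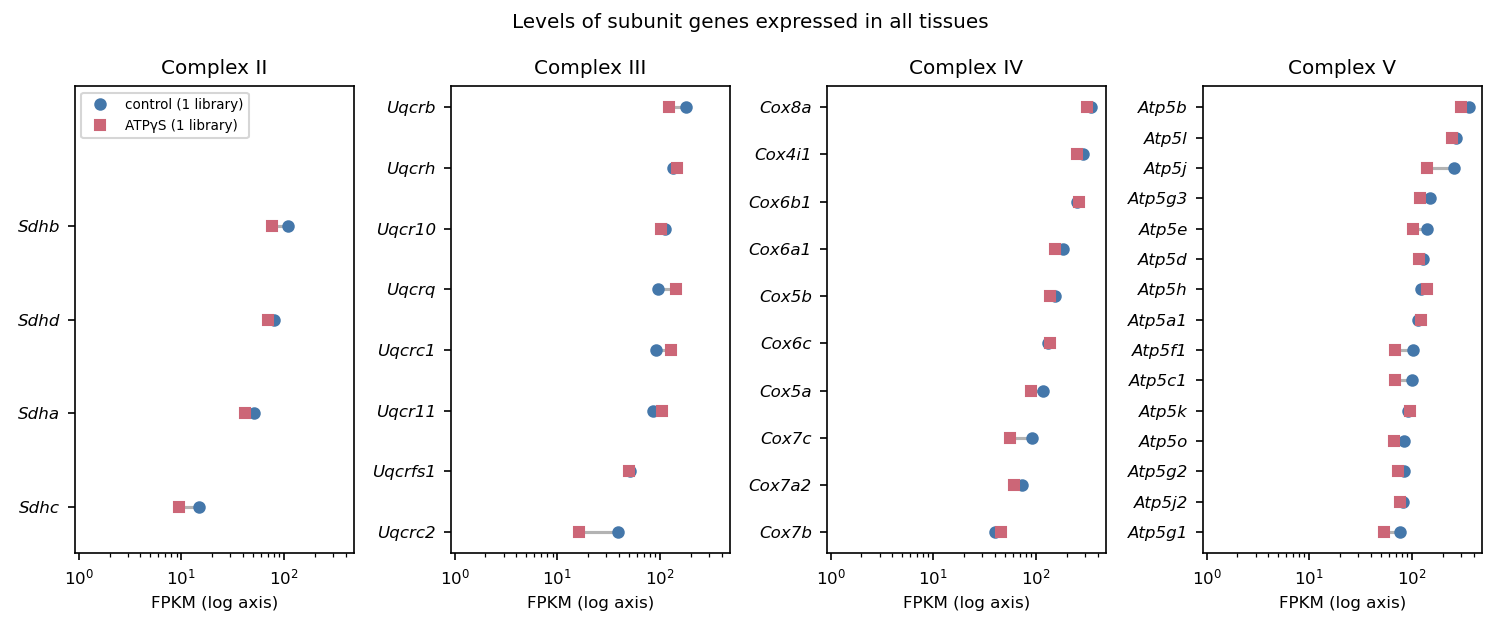
FPKM (log axis) of the 37 subunit genes expressed in all tissues in the control library (circles) and the ATPγS library (squares), by complex and in order of the control level. Atp5b and Cox8a are the highest, Sdhc is the lowest in both libraries, and the longest line joins the points of Uqcrc2.

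Complex II has 4 subunits, all encoded in the nucleus, and all 4 genes were lower with ATPγS (median log2 ratio -0.40). Of all symbols, 49.6% at a mean of 1 FPKM or more lay below 0. At 20 FPKM or more the share was 60.7%, with a median of -0.12. Sdhb, the iron-sulfur subunit that carries electrons from the flavin to ubiquinone, stood at 109.95 FPKM in the control and 76.3 with ATPγS (counting interval 0.580 to 0.826). Sdha, the flavoprotein that oxidises succinate, stood at 51.6 and 42.3 FPKM (interval 0.701 to 0.956). The catalytic pair thus moved in 1 direction between these libraries, by 1.22-fold for Sdha and 1.44-fold for Sdhb. Sdhc and Sdhd encode the membrane anchors that bind ubiquinone. Sdhd stood at 81.1 and 69.8 FPKM, with an interval of 0.713 to 1.04 that includes no difference. Sdhc was the lowest subunit gene of all at 15.0 and 9.54 FPKM. Its transcript model is also the longest of the 37, at 3171 bases, and Sdhb stood 7.33 times above it in the control and 7.997 times with ATPγS.

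Complex III was the most evenly divided of the complexes. Its 8 genes had 4 below 0 and 4 above, with a median log2 ratio of 0.05 and a mean of -0.05. This share is near the background, since 49.6% of all symbols at a mean of 1 FPKM or more lay below 0, and 60.7% at 20 or more. The core proteins form the large matrix-facing part of the complex, and they went opposite ways. Uqcrc2 (core protein 2, chromosome 7, 120635176 to 120659524, GRCm38, 14 exons) stood at 38.8 FPKM in the control and 16.4 with ATPγS, 2.37-fold lower (counting interval 0.323 to 0.554). Uqcrc1 (core protein 1, chromosome 9, 108936633 to 108949623, 13 exons) stood at 90.8 and 129 FPKM, with an interval of 1.24 to 1.63. The level of Uqcrc1 was therefore 2.34 times that of Uqcrc2 in the control and 7.85 times with ATPγS, although the proteins are present in equal number in the complex. Their coding sequences are 65.1% identical over 1207 aligned bases, and neither had a near-identical copy among annotated transcripts (at least 95% identity over 100 bases). Uqcrc2 does share 504 exonic bases with Pdzd9 on the opposite strand, which this preparation cannot separate. Pdzd9 was listed at 3.25 and 1.70 FPKM.

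The smaller subunits of complex III also differed among themselves. Uqcrq, a ubiquinone-binding subunit, was the other gene with an interval wholly above 1, at 95.4 and 143 FPKM (1.15 to 1.99). Uqcrb, which also lies at the ubiquinone site, was lower at 179 and 123 FPKM (0.559 to 0.841). Uqcrb has 3 near-identical annotated pseudogenes, so part of its reads may have been placed elsewhere. The Rieske iron-sulfur protein gene Uqcrfs1, which takes the first electron from ubiquinol, hardly differed at 51.4 and 49.8 FPKM. Uqcrh, the hinge protein that helps cytochrome c dock (134 and 149 FPKM), Uqcr10 (112 and 102 FPKM) and Uqcr11 (84.9 and 104 FPKM) had intervals that include no difference. Cyc1, the cytochrome c1 gene of complex III whose symbol falls outside the rule, stood at 68.3 and 71.3 FPKM.

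In complex IV the subunit genes of all tissues were abundant, and 7 of 10 lay below 0 (70%; median log2 ratio -0.19), near the 60.7% of all symbols at a mean of 20 FPKM or more. Its catalytic core is encoded in mitochondrial DNA, which is not analysed here, and the nuclear subunits surround it. Cox8a, of a small single-pass subunit, was the highest at 344 and 316 FPKM. Cox4i1, the largest nuclear subunit and the site of regulation by ATP, stood at 285 and 249 FPKM. Cox6b1, which faces cytochrome c between the membranes, stood at 250.3 and 263 FPKM. None of these 3 differed by as much as 1.2-fold.

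Cox7c, another small single-pass subunit, differed most of the 10 subunit genes of all tissues, at 92.5 and 56.6 FPKM (interval 0.453 to 0.815). It has 3 near-identical annotated copies, the closest 100% identical over 192 bases. Cox5a, a subunit on the matrix side, stood at 117 and 90.1 FPKM (0.617 to 0.964), while its matrix-side neighbour Cox5b, which holds a zinc ion, stood at 155 and 137 FPKM. Cox6a1 (185 and 153 FPKM) and Cox7a2 (73.7 and 60.7 FPKM) were lower by 1.21-fold each. Cox6c (130 and 138 FPKM) and Cox7b (40.007 and 46.1 FPKM), the lowest of the 10, were slightly higher, with intervals that include no difference. Cox7a2l, a relative of the 7A subunit that joins complexes III and IV into supercomplexes, stood at 57.1 and 46.3 FPKM.

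The form made in most tissues dominated every isoform pair of complex IV. Cox4i1 made up 100% of the summed FPKM of its pair in the control and 99.8% with ATPγS, against the lung form Cox4i2 (listed at 0 and 0.528 FPKM). Cox6a1 took 99.6% and 100% against the heart and muscle form Cox6a2 (0.814 FPKM and listed at 0). Cox6b1 took 97.7% and 100% against the testis form Cox6b2 (5.80 FPKM and listed at 0, about 5 reads). Cox7a2 and the heart and muscle form Cox7a1 stood far apart too, Cox7a1 being at 2.38 FPKM and listed at 0 (about 2 reads). Cox7b took 94.8% and 91.8% against Cox7b2 (2.202 and 4.12 FPKM). In the family of subunit 8, Cox8a took 97.6% and 95.5%, the testis form Cox8c stood at 8.30 and 4.14 FPKM, and the heart and muscle form Cox8b was listed at 0 without ATPγS and at 10.9 FPKM with it (about 11 reads).

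**Figure D4:**
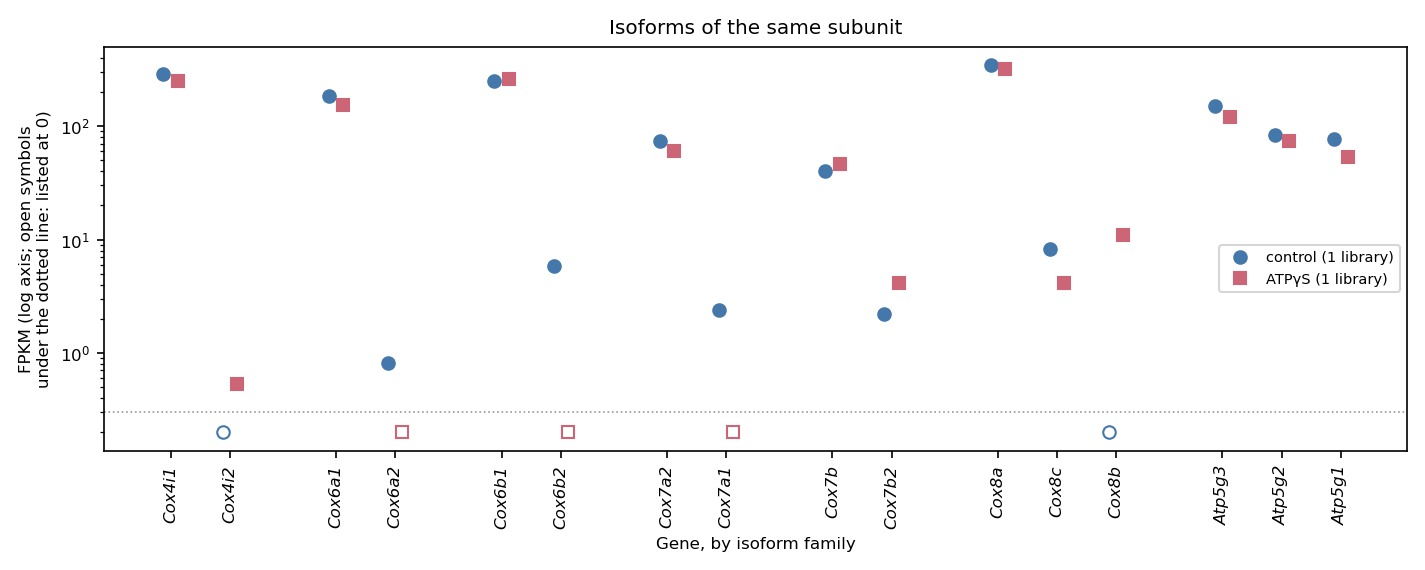
FPKM (log axis) of genes that encode forms of the same subunit, in the control (circles) and ATPγS (squares) libraries, with open symbols under the dotted line for genes listed at 0. The forms of most tissues stand at 40.007 FPKM or more, the tissue-specific forms of complex IV at 10.9 or less, and the 3 subunit c genes between 53.3 and 151 FPKM.

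Genes of other tissues were seen at similar low levels. Of 1414 olfactory and vomeronasal receptor genes, which sensory neurons express, 74.7% were listed above 0 in the control and 84.3% with ATPγS, with medians of 1.98 and 2.22 FPKM. At 10 FPKM or more were 173 of them (12.2%) in the control and 164 (11.6%) with ATPγS. As with Cox8b, 226 were at 0 in the control only, and as with Cox6b2 and Cox7a1, 90 were at 0 with ATPγS only. Heart and skeletal muscle markers (8 of 12 above 0 in the control, 9 with ATPγS) summed to 8.68 and 20.5 FPKM, with Ttn at 3.71 and 5.40 and Mb listed at 0 and 3.94, while Ckm and Tnnt3 were at 0 in both. Testis germ cell markers (7 of 9 above 0 in each) summed to 34.0 and 43.7 FPKM, with Tnp1 at 15.4 and 7.68 and Odf1 at 5.28 and 12.8, while Prm1 was at 0 in both. The part of such low-level signal in the isoform values was not tested.

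Reads of the subunit 8 forms can be told apart by sequence. The coding sequences of Cox8a and Cox8b are 68.1% identical over 182 aligned bases. They are shown here, without the stop codon, because the Cox8b value rests on few reads; capitals mark bases that differ or have no partner in the alignment (GENCODE M21 transcripts, GRCm38).
Cox8a: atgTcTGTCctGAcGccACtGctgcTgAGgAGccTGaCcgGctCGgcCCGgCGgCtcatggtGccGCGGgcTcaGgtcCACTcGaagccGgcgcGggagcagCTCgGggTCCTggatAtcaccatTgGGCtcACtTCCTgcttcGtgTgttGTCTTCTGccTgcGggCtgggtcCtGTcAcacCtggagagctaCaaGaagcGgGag
Cox8b: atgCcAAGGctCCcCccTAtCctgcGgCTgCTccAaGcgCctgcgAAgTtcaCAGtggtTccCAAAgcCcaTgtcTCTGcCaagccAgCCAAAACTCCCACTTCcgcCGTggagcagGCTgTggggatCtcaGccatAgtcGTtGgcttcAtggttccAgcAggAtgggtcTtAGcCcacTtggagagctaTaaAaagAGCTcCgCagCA

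In complex V, 12 of 15 subunit genes lay below 0 (80%; median log2 ratio -0.26), compared with 60.7% of all symbols with a mean of 20 FPKM or more. The catalytic F1 part showed this unevenly. Atp5b, the catalytic beta subunit and the highest gene of the complex, stood at 364 FPKM in the control and 304 with ATPγS (interval 0.779 to 0.897). Atp5a1, the alpha subunit that alternates with beta in equal number, stood at 114 and 123 FPKM (interval 0.973 to 1.201). The level of Atp5b was thus 3.19 times that of Atp5a1 in the control and 2.46 times with ATPγS. In the central stalk, which turns inside F1, Atp5c1 (gamma) was lower at 100.1 and 69.2 FPKM and Atp5e (epsilon) at 141 and 103 FPKM, both with intervals wholly below 1. Atp5d (delta) stood at 129 and 116 FPKM.

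The peripheral stalk, which holds F1 still, held the gene that differed most among the structural subunit genes of complex V. Atp5j (coupling factor 6, chromosome 16, 84827866 to 84835625) stood at 258 FPKM in the control and 141 with ATPγS, 1.82-fold lower (interval 0.467 to 0.642). Atp5f1 (subunit b) stood at 102 and 69.1 FPKM (0.580 to 0.791), with 2 processed pseudogenes nearly identical to it and 337 exonic bases shared with Wdr77 on the other strand. Atp5o (OSCP, the cap of the stalk) stood at 83.7 and 66.5 FPKM. Atp5h (subunit d) went the other way, at 123 and 142 FPKM, with an interval of 0.919 to 1.46 that includes no difference. Atp5h has 4 near-identical processed pseudogenes, the closest 99.0% identical over 485 bases, and Atp5o has 1.

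In the membrane part, Atp5l (subunit g, 271 and 245 FPKM), Atp5k (subunit e, 91.9 and 95.02 FPKM) and Atp5j2 (subunit f, 82.7 and 76.3 FPKM) differed by less than 1.2-fold. Atp5l has 10 near-identical annotated copies, more than any other member. Of genes outside the rule, 2010107E04Rik and Usmg5, both of small membrane subunits, stood at 177 and 124 FPKM and at 346 and 339 FPKM, and Atpif1, the inhibitor that blocks ATP hydrolysis by F1, at 16.7 and 19.5 FPKM. Atp5s (1.14 and 3.62 FPKM, about 4 and 15 reads) and Atp5sl (4.05 and 3.89 FPKM), which are not subunits of the enzyme, were far below the rest.

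The ring of subunit c, which turns as protons pass, is encoded by 3 genes. Atp5g3 stood at 151 and 119 FPKM, Atp5g2 at 83.6 and 73.9 FPKM and Atp5g1 at 76.6 and 53.3 FPKM. All 3 were lower with ATPγS, as were 60.7% of all symbols with a mean of 20 FPKM or more. The counting interval of Atp5g2 (0.646 to 1.205) includes no difference. Those of Atp5g3 (0.660 to 0.955) and Atp5g1 (0.515 to 0.935) lay wholly below 1. Of the sum of the 3, Atp5g3 gave 48.5% in the control and 48.4% with ATPγS. Together they stood at 311 and 246 FPKM (interval of the ratio of summed reads 0.685 to 0.904), or 0.855 and 0.811 times Atp5b.

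The 3 genes encode the same mature protein of 75 residues behind different leader peptides. Their coding bases for it are shown because they tell apart reads of 3 genes for 1 protein: 57 of 225 bases vary, 52 of them at the third position of a codon, and the longest stretch shared by a pair (Atp5g1 and Atp5g2) is 20 bases. Capitals mark the variable bases (GENCODE M21 transcripts, GRCm38).
Atp5g1: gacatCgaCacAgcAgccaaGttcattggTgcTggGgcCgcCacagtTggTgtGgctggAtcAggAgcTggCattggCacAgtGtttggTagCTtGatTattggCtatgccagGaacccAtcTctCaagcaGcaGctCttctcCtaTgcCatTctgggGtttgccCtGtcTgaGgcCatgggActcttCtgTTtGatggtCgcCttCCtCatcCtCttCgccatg
Atp5g2: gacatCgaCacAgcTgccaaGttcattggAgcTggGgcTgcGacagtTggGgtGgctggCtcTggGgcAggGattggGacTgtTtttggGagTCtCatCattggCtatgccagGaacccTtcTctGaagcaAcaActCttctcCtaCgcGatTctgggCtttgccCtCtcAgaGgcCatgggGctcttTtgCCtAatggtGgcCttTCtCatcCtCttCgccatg
Atp5g3: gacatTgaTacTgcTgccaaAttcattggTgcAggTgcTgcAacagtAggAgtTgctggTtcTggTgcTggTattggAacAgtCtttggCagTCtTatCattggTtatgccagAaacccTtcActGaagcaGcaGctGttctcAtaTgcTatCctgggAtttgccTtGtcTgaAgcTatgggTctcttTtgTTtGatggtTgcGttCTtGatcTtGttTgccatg
In this part Atp5g1 is 84.9% identical to Atp5g2 and 80.0% identical to Atp5g3. Atp5g2 has a processed pseudogene 100% identical over 441 bases and Atp5g1 has 1 at 99.8%, so reads of these genes may be shared with copies that are not analysed here.

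Near-identical copies concerned 15 of the 37 subunit genes, and 0 of the 7 tissue-specific isoforms. The median log2 ratio was -0.18 in the genes with a copy and -0.24 in the 22 without. The members are spread over 18 chromosomes. Their transcripts are short, with a median of 680 bases, and the log2 ratio ran weakly against length (Spearman rho = -0.27 across 37 genes, which share both libraries).

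A promoter feature recurred among the members. NRF1, ETS factors such as GABP, and YY1 are known as regulators of nuclear respiratory genes, and their motifs were searched on both strands in the RefSeq promoters (GRCm38.p6, 250 bases before to 50 after the start) as GCGCA, any base and GCGC (NRF1), CCGGAAGT (ETS) and AAGATGGCG (YY1). RefSeq promoters were found for 37 members, 30 of them subunit genes of all tissues. Of these 30, 10 held the NRF1 motif (33.3%), compared with 7.17% of 17492 protein-coding genes and 11.5% of 2571 with a mean of 20 FPKM or more. The ETS motif was in 4 (13.3%; 5.69% and 10.1%) and the YY1 motif in 2 (6.67%; 2.14% and 3.93%). A match describes letters in the window and is not a bound site.

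Promoter stretches of Cox6a1, with a pair of NRF1 motifs, and of Atp5h, with 1, are shown as examples; both are on the minus strand, read in the direction of the gene, and cover the longest stretch of the 250 upstream bases that lies in no annotated exon. Capitals mark the motifs.
Cox6a1 promoter, chr5:115348982-115349129, minus strand: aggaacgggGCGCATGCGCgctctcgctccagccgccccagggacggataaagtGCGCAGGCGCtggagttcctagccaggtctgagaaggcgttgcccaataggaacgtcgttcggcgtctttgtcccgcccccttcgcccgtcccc
Atp5h promoter, chr11:115419963-115420127, minus strand: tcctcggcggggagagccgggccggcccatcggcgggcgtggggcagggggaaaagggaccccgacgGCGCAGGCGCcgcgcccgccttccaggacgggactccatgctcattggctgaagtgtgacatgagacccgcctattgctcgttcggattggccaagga
These 2 examples were on either side of 0, Cox6a1 with a log2 ratio of -0.27 and Atp5h with 0.20. Of the 10 subunit genes with the NRF1 motif, Uqcrc1, Atp5h and Atp5k lay above 0 and the others below, as did most subunit genes.

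Other genes of the respiratory chain gave a mixed picture. Complex I, the NADH dehydrogenase, had 35 subunit genes in the list, all at a mean of 1 FPKM or more. Of these, 26 lay below 0 (74.3%, against 49.6% of all symbols at that level and 60.7% at 20 FPKM or more). At least 2-fold lower were 3 (8.57%, with a background of 9.91%, or 5.0% at 20 FPKM or more). They were Ndufv3 (90.6 and 25.9 FPKM), Ndufb6 (103 and 39.8 FPKM) and Ndufs4 (30.7 and 13.3 FPKM). At least 2-fold higher were 0 (background 13.8%, or 2.30% at 20 FPKM or more), and the median log2 ratio was -0.32. Ndufb2 was the highest of the 35 by ratio (21.1 and 39.4 FPKM). The difference between complex I and complexes II to V was not tested.

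Assembly factors of complexes II to V are proteins that insert cofactors and join subunits. Of 34 with a mean of 1 FPKM or more, 7 were at least 2-fold higher with ATPγS (20.6%; background 13.8%) and 3 at least 2-fold lower (8.82%; background 9.91%), with 18 above 0 and a median of 0.03. Atpaf2, a chaperone of the F1 alpha subunit, stood at 4.39 and 15.6 FPKM, and Sco2, which brings copper to complex IV, at 4.28 and 13.1 FPKM. Pet117, of another complex IV assembly factor, was listed at 0 and at 8.999 FPKM. Coa4, of a complex IV assembly factor too, was lower at 18.7 and 1.75 FPKM, about 30 and 4 reads. Of all symbols, 23.7% with a mean of 1 FPKM or more and 7.30% with a mean of 20 FPKM or more differed by at least 2-fold in either direction.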

How the data were processed

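Both libraries were made from full-length cDNA (SMART-Seq HT) with a Nextera kit, per the labels' protocols; no strand-marking step is recorded. The authors deposited FPKM with 1 value per symbol. Cufflinks 2.2.1, TopHat2 2.0.13, SAMtools 0.1.19, Bowtie2 2.2.3 and build mm10 are named, without their roles, per the submitters' processing notes. The sources used here give neither annotation nor options. FPKM are not counts, so no count test was run, and with 1 library per group no p-value was computed. No fold is given against a value of exactly 0, which may be an estimate that failed.

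Ratios were log2((ATPγS + 1) / (control + 1)), folds were FPKM ratios, and a mean FPKM of at least 1 was required for counts. The total of each library was read from the steps of FPKM times coding length in 1414 receptor genes. With the step chosen, 65.0% and 64.3% of values under 10 reads came out whole within 0.05. The step was picked to make this share high, so the 10% by chance for a step fixed beforehand is not a like comparison. Reads per member used the GENCODE M21 transcript with the longest coding sequence and are approximate, since the authors' models may differ. Of the symbols, 23310 (95.7%) and all 47 members were found there, Atp5sl by its newer symbol. Copies were sought among annotated transcripts with blastn 2.17.0. Calculations used Python 3.11.15, pandas 2.3.3, NumPy 2.4.6, SciPy 1.17.1 and Biopython 1.88. The ratio, call, interval and depth steps were run on simulated reads with known depth and transcript lengths. Those reads held no PCR copies, so that run checks the calculation and not how well the intervals hold for these data.

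Every member is named; of other pathway lists up to 4 genes with the largest ratios, and of marker lists the 2 most abundant, were eligible. Cyc1, Usmg5, Itgam, Ckm, Tnnt3, Prm1, Pdzd9 and Wdr77 were named after their values were seen. Ly6g and Hbb-bt were named because their symbols were absent. Members and lists were chosen with earlier results of these data known.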

Additional observations from a re-analysis of the deposited data

How the results depend on the processing

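No paired analysis was possible because each group has 1 library. Leaving out a replicate was not possible either. The depth of 2132000 and 2849000 fragments limits the tissue-specific isoforms, all at about 11 reads or fewer. Log2 ratios of single members changed sign for 0 of 47 members with a pseudocount of 0.1 or 5, for 1 after rescaling to the same sum and for 4 after rescaling to a median of 0, and no member past 2-fold changed direction. The count of members at least 2-fold lower (3) was 1 at a mean of 20 FPKM or more and 1 without isoforms and non-structural genes. At a 1.5-fold threshold 7 of the 45 members were lower and 3 higher. The share of all symbols past 1.5-fold was not computed, so these 2 counts have no background. The count at least 2-fold higher (2) was 1 with a pseudocount of 5, 0 at a mean of 20 FPKM or more and 0 without isoforms and non-structural genes. The count below 0 (32 of 45) was 18 of 25 without members that have a near-identical copy or an overlapping gene, an alternative chosen after seeing the data that tests fewer genes. The median of members (-0.19) was -0.14 after rescaling to the same sum and -0.064 after rescaling to a median of 0. With the second rescaling the medians by complex were 0.18 for III, -0.10 for IV and -0.048 for V, and the log2 ratios of sums 0.18 for III, -0.018 for IV and -0.14 for V. The median of complex V, -0.18 over its 17 genes, was -0.26 at a mean of 20 FPKM or more and -0.26 without the non-structural genes. Counting intervals wholly below 1 (18 of 45) numbered 10 and those wholly above 1 (3) numbered 6 after rescaling to a median of 0, also chosen after seeing the data. The rescalings shifted log2 ratios by 0.05 and 0.13.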

Other observations

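Of 16 regulators of mitochondrial gene expression and membrane structure with a mean of 1 FPKM or more, 11 lay below 0 (68.8%, against 49.6% of all symbols at that level), with a median log2 ratio of -0.37. No test of the group was made. With 1 added to each FPKM, 1 of the 16 was at least 2-fold higher with ATPγS (6.25%, background 13.8%) and 0 at least 2-fold lower (background 9.91%). The 1 higher gene was Esrra, of a nuclear receptor that acts on respiratory genes (4.28 and 9.88 FPKM). Higd2a, of a small protein that supports complexes III and IV, stood at 39.0 and 76.8 FPKM. Gabpa, of the DNA-binding subunit of GABP, was lower at 9.55 and 4.88 FPKM, and Ppargc1b, of a coactivator of mitochondrial biogenesis, at 2.42 and 0.787 FPKM. The FPKM ratio of Ppargc1b was 0.326, on about 17 and 7 reads, but with 1 added its log2 ratio was -0.94, short of the 2-fold call. Cycs, the electron carrier between complexes III and IV, stood at 67.9 and 59.4 FPKM, and the testis form Cyct at 9.79 and 11.6 FPKM.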
